A study of Homo sapiens with 6 samples.

Results

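The hypoxia-inducible factors (HIFs) and the enzymes that let cells sense oxygen were followed in a breast cancer line that made its own oncostatin M (OSM), a cytokine of the IL-6 family. The genes were chosen by name as the core of the oxygen-sensing pathway, namely the HIF alpha subunits EPAS1, HIF1A and HIF3A, their partners ARNT and ARNT2, the prolyl hydroxylases EGLN1, EGLN2 and EGLN3, the asparaginyl hydroxylase HIF1AN and VHL. Of these 10 genes 9 were matched to a transcript cluster, the array's unit of measurement, out of 21448 on each array, and ARNT2 was not analysed here. Each of the 9 had a single transcript cluster, so the mean signal, by which one of several would have been kept, was not needed. The family was put forward with earlier results of these arrays known, so counts over its members are a description.

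MDA-MB-231 is a triple-negative human breast cancer cell line, and both lines compared here derive from it. MDA-MB-231-hOSM carries pUNO1-hOSM, a plasmid that expresses human OSM, MDA-MB-231-hC carries the empty pUNO1 plasmid, and both received 2 μg of plasmid and were kept under blasticidin at 10 μg/mL. The lines were grown side by side and RNA was taken at 3 nonconsecutive passages, taken here to be the sets 1, 2 and 3 of the sample labels, for Human Clariom S arrays (n = 3 per line). Separate transfections are not described, so what arose during transfection or selection cannot be told apart from an effect of OSM, and p-values cover only the spread of that difference among the 3 passages. The sources used here do not say whether the lines are clones or pools, or at what oxygen level they grew.

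In oxygenated cells the EGLN enzymes hydroxylate prolines of the HIF alpha subunits, and VHL, the substrate receptor of an E3 ubiquitin ligase, binds the hydroxylated subunits and has them degraded. HIF1AN hydroxylates an asparagine that otherwise binds the coactivators CREBBP and EP300. When oxygen is scarce the alpha subunits last, pair with ARNT and bind hypoxia response elements in the genes of glucose uptake, glycolysis, vessel growth and matrix modification. Much of this control acts on protein, which these arrays did not measure.

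The file held log2 signals made by the authors, with array medians between 6.82 and 6.85. OSM itself had log2 signals of 5.06, 5.11 and 5.26 in MDA-MB-231-hC and 14.90, 14.82 and 14.69 in MDA-MB-231-hOSM in sets 1, 2 and 3, so every label matched its transfected gene. Of 3 genes that this line is known to lack, ESR1, PGR and CDH1, all lay at background, and VIM, CD44, MSN, CAV1 and ANXA1, which it expresses, had mean log2 signals of 13.93 or more in both lines. The file has no detection p-values, so the 95th percentile of the mean log2 signals of 348 olfactory receptor genes, 5.78, served as a guide to background. The 2 arrays of a set were mirror images around the means of their lines, with Pearson's r of −0.993, −0.995 and −0.992 over transcript clusters (these are not independent of each other), so spread shared by both arrays of a set is almost absent from the values. Transcript clusters were called at an adjusted p under 0.1 and a change over 2-fold in limma with the set as a block, and each adjusted p below is from that fit over all 21448. By this rule 888 were called (4.14%), of which MDA-MB-231-hOSM had the higher signal for 557 (2.6%) and the lower for 331 (1.54%).

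EPAS1 and EGLN3 were higher in MDA-MB-231-hOSM cells and no member was called lower. EPAS1, which encodes HIF-2α, rose 25.6-fold, and EGLN3, which encodes the prolyl hydroxylase PHD3, rose 2.26-fold. HIF1A passed the adjusted p with a 1.43-fold difference, under the fold limit, and the other 6 genes passed neither. The 2 calls among 9 members are 22.2%, against 4.14% of all transcript clusters. In RNA of whole cultures a larger share of expressing cells and more RNA per cell cannot be told apart.

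**Figure D1:**
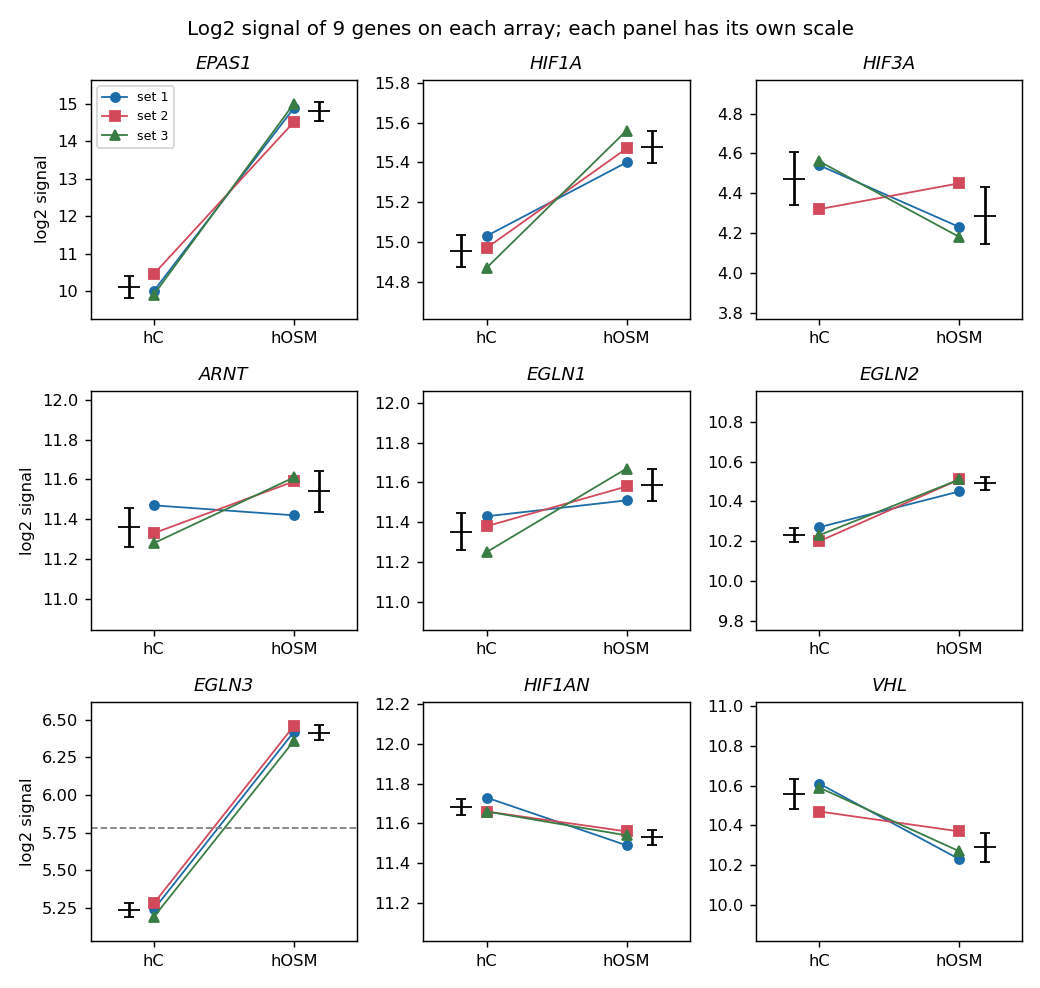
Log2 signal of the 9 measured genes on the 6 arrays, with a panel and a vertical scale for each gene. Colored lines join the MDA-MB-231-hC (hC) and MDA-MB-231-hOSM (hOSM) arrays of a set, black bars give the mean ± SD (n = 3), and the dashed line is the background guide of 5.78. EPAS1 and EGLN3 stand far apart in the 2 cell lines, whereas the arrays of the 2 cell lines overlap for HIF3A and ARNT.

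EPAS1 (transcript cluster TC0200007458.hg.1, chromosome 2) had log2 signals of 10.01, 10.46 and 9.91 in MDA-MB-231-hC and 14.89, 14.52 and 15.01 in MDA-MB-231-hOSM, in sets 1, 2 and 3. The lowest MDA-MB-231-hOSM array thus lay 4.06 above the highest MDA-MB-231-hC array. Set 2 held both the highest control and the lowest OSM signal, which the mirror-image arrays of a set bring with them. The gap is therefore also the difference of set 2. That difference of 4.06 was the smallest of the 3, beside 4.88 and 5.10 in sets 1 and 3. The means were 10.13 ± 0.29 and 14.81 ± 0.26 (SD, n = 3), with a log2 fold change of 4.68 (SE 0.21, adjusted p = 0.000188 from limma). The 95% interval of the log2 fold change ran from 4.17 to 5.19, and the increase ranked 17 among the 21448. The signal of MDA-MB-231-hC already stood well above the background guide, so the fold is not set against background. Without both arrays of a set the log2 fold change was between 4.47 and 4.99, with the highest adjusted p = 0.0303 from limma.

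HIF1A, which encodes HIF-1α, had log2 signals of 15.03, 14.97 and 14.87 in MDA-MB-231-hC and 15.40, 15.47 and 15.56 in MDA-MB-231-hOSM. The arrays of the lines did not overlap, and the differences within sets 1, 2 and 3 were 0.37, 0.50 and 0.69. The log2 fold change was 0.52 (SE 0.13, adjusted p = 0.0489 from limma), with a 95% interval of the fold from 1.16 to 1.78. With only 2 sets in the fit the adjusted p was 0.144 to 0.218 from limma, whichever set was left out. The differences of EPAS1, from 4.06 to 5.10, and those of HIF1A, from 0.37 to 0.69, did not overlap in any set.

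HIF3A, whose best known splice forms restrain the other alpha subunits, had log2 signals of 4.54, 4.32 and 4.56 against 4.23, 4.45 and 4.18. All 6 lay below the background guide, and the set 2 difference had the opposite sign to those of sets 1 and 3 (0.13 against −0.31 and −0.38). No change can be judged at this signal (log2 fold change −0.19, adjusted p = 0.454 from limma).

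ARNT, also called HIF-1β, pairs with every alpha subunit. Its log2 signals were 11.47, 11.33 and 11.28 in MDA-MB-231-hC and 11.42, 11.59 and 11.61 in MDA-MB-231-hOSM, and the groups overlapped because set 1 differed by −0.05. The log2 fold change of 0.18 had a 95% interval from −0.14 to 0.50 (adjusted p = 0.428 from limma), so a 2-fold change lies outside its interval.

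Of the 3 prolyl hydroxylases only EGLN3 was called. EGLN3 (transcript cluster TC1400010730.hg.1, chromosome 14) had log2 signals of 5.24, 5.28 and 5.19 in MDA-MB-231-hC and 6.42, 6.46 and 6.36 in MDA-MB-231-hOSM. The 3 differences were 1.18, 1.18 and 1.17, the most even of any member, and the arrays of each line lay within 0.10 of each other. EGLN3 was an exception to the mirror-image pattern, since its 2 arrays of a set moved together. Its log2 fold change was 1.18 (SE 0.12, adjusted p = 0.00263 from limma), with a 95% interval of the fold from 1.86 to 2.75. The SE is larger than this spread alone would give, since limma draws each variance toward that of all transcript clusters. The MDA-MB-231-hC arrays lay below the background guide and the MDA-MB-231-hOSM arrays above it, so the fold and its interval are ratios of array signals against a background level and not a measured ratio of transcripts. EGLN3 is itself a known HIF target. Its call held without each set in turn, with a log2 fold change that stayed at 1.18 and the highest adjusted p = 0.0691 from limma.

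EGLN1, which encodes PHD2, the main oxygen sensor in most cells, had log2 signals of 11.43, 11.38 and 11.25 against 11.51, 11.58 and 11.67. These did not overlap, by a margin of 0.08, and the log2 fold change was 0.23 (SE 0.13, adjusted p = 0.291 from limma). EGLN2, which encodes PHD1, had log2 signals of 10.27, 10.20 and 10.23 against 10.45, 10.51 and 10.51, with a log2 fold change of 0.26 (SE 0.12, adjusted p = 0.214 from limma). The upper ends of their 95% intervals were 1.46-fold for both. Their differences were not tested against that of EGLN3.

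The 2 genes that restrain HIF from other sides had lower signals on every MDA-MB-231-hOSM array, without passing the test. HIF1AN, which encodes FIH, had log2 signals of 11.73, 11.66 and 11.66 in MDA-MB-231-hC and 11.49, 11.56 and 11.54 in MDA-MB-231-hOSM (log2 fold change −0.15, 95% interval −0.44 to 0.13, adjusted p = 0.449 from limma). VHL had log2 signals of 10.61, 10.47 and 10.59 against 10.23, 10.37 and 10.27 (log2 fold change −0.27, 95% interval −0.57 to 0.04, adjusted p = 0.223 from limma). For each of them the nearest arrays of the 2 lines were 0.10 apart. In all, the lines did not overlap for 7 of the 9 genes, 5 with MDA-MB-231-hOSM above and 2 below, and such a separation held for 50% of all transcript clusters. Without the set in the model, HIF1AN, VHL, EGLN1 and EGLN2 had adjusted p-values of 0.0607, 0.0227, 0.0468 and 0.0102 from limma, with the same log2 fold changes, under 2-fold. These p-values are too small, since that model counts 4 residual degrees of freedom where the mirrored arrays hold 2.

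**Figure D2:**
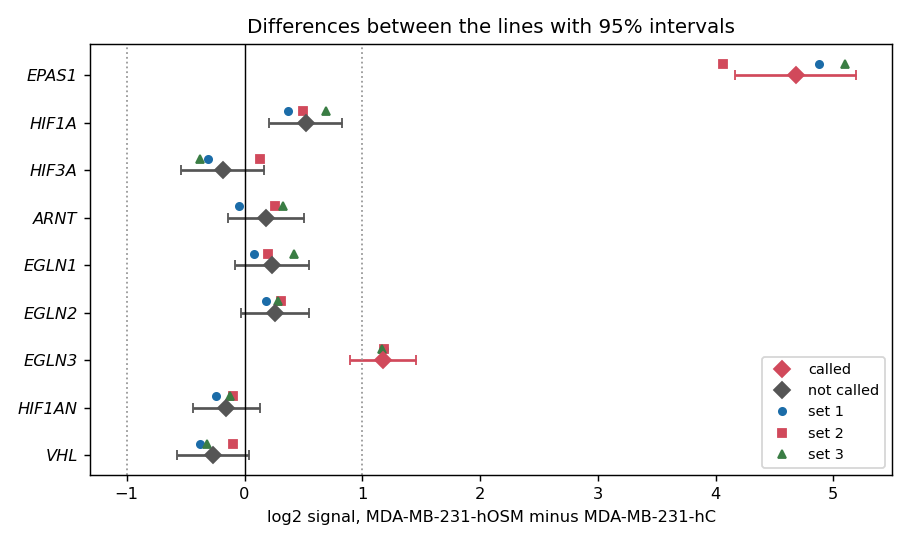
Differences in log2 signal for the 9 genes, as MDA-MB-231-hOSM minus MDA-MB-231-hC. Diamonds give the log2 fold change with its 95% interval from limma, small symbols above them the difference within each set, and dotted lines 2-fold. EPAS1 at 4.68 and EGLN3 at 1.18 are called, and every other interval ends below 1.

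The DNA in front of EPAS1 and EGLN3, the 2 genes called, and of HIF1A, the close relative of EPAS1 that stayed under the fold limit, is shown here with any core of a hypoxia response element in capitals. The cores searched were ACGTG and GCGTG on both strands. Sequences are from RefSeq on GRCh38.p14, each as the 250 bases before the gene's start, 5′ to 3′ on the gene's strand. HIF1A has another annotated start, whose window is not shown. EPAS1 is at chr2:46297157-46297406 (plus strand), HIF1A at chr14:61695263-61695512 (plus strand) and EGLN3 at chr14:33951075-33951324 (minus strand).
EPAS1: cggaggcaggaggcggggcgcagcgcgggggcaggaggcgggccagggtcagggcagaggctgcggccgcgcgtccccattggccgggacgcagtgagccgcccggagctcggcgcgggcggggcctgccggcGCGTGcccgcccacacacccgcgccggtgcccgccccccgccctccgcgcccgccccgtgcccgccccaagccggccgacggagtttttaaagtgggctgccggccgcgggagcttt
HIF1A: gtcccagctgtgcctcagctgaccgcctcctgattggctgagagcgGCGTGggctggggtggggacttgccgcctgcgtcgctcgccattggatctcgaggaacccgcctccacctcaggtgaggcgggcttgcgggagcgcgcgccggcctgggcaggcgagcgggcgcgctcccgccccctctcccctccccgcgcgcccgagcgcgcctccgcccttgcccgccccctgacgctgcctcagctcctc
EGLN3: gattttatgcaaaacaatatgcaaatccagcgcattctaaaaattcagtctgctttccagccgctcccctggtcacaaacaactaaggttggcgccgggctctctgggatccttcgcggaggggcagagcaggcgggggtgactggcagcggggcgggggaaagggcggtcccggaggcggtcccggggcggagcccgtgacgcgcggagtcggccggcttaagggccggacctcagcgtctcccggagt
EPAS1 and HIF1A each held 1 core, a GCGTG, which began 117 and 204 bases before the start. The EGLN3 stretch held neither core, which says only that these letters are not in this window.

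EGLN1 and EGLN2, the prolyl hydroxylases that were not called, had the ACGTG core close to the start. It began 13 bases before the start in EGLN1 and 49 and 48 bases before it in EGLN2, where matches on the 2 strands overlap. HIF1AN, the asparaginyl hydroxylase, was not called either and held neither core in its window. The stretches around ACGTG in EGLN1 and EGLN2 are given for comparison with EGLN3, from chr1:231422286-231422310 (minus strand) and chr19:40799132-40799156 (plus strand).
EGLN1: gccgtggtgtACGTGcagagcgcgc
EGLN2: ggggcgcggtCACGTGcccaccggg
Promoter windows from 250 bases before to 50 after the start were matched for 8 of the 9 genes, 12 windows in all, and VHL was not matched. Of the 12 windows 5 (41.7%), each of a different gene, held ACGTG or GCGTG. Of all 35116 windows of this length, 48.4% held either core, ACGTG 21.4% and GCGTG 36.5%. The palindrome TTCNNNGAA, the form bound by STAT factors, was in 1 of the 12 windows (8.33%), of HIF3A, and in 7.66% of all windows. EPAS1 had a core that is common among promoters, and EGLN3 had none in its window. Whether HIF proteins act on either gene was not tested.

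EPAS1 was not alone in the size and the set-to-set course of its difference. Among 17686 other genes, each by its transcript cluster with the highest mean, the 5 whose differences in the 3 sets lay nearest to those of EPAS1, by Euclidean distance, were NNMT, ENG, C3, IL1B and ICAM1, at distances of 0.55 to 0.87 on the log2 scale. NNMT, which encodes nicotinamide N-methyltransferase, had differences of 5.31, 4.30 and 5.35 in sets 1, 2 and 3. Its smallest difference was in set 2, as for EPAS1, ENG, C3 and IL1B. ENG, the TGF-β coreceptor endoglin, differed by 4.57, 4.43 and 4.69. C3, the central complement component, differed by 4.41, 4.25 and 4.56. All 3 differences of ENG and of C3 were close together, unlike those of IL1B, which encodes interleukin 1β and had 5.24, 3.60 and 5.64. ICAM1, a leukocyte adhesion molecule, differed by 4.12, 4.31 and 5.45, with its smallest difference in set 1. The MDA-MB-231-hC arrays of NNMT (3.90, 4.44 and 3.89) and of C3 (5.34, 5.39 and 5.24) lay below the background guide. For these genes the size is therefore a difference against a background level, unlike that of EPAS1. The likeness to EPAS1 rests on 3 differences a gene, by which the genes were also chosen, and is a description.

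**Figure D3:**
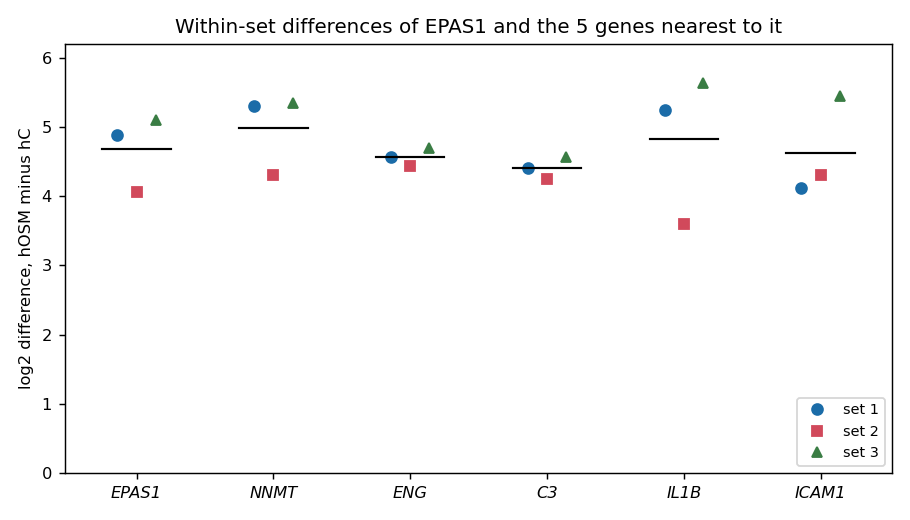
Log2 difference (MDA-MB-231-hOSM minus MDA-MB-231-hC) within each set for EPAS1 and the 5 genes nearest to it, with the mean as a black line. EPAS1, NNMT, ENG, C3 and IL1B have their smallest difference in set 2, at 4.06, 4.30, 4.43, 4.25 and 3.60, and ICAM1 in set 1.

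Genes downstream of the factors were then counted in lists written from general knowledge, also with earlier results known. Over all transcript clusters 2.6% were called higher and 1.54% lower, the shares to hold beside each count of called genes or markers below. Among targets shared by HIF-1 and HIF-2, 11 of 28 measured genes rose, none fell and 17 were not called, with a median log2 fold change of 0.64 against −0.03 over all transcript clusters. Without the fold limit 18 of the 28 passed the adjusted p with the higher signal in MDA-MB-231-hOSM and 2 with the lower. Over all transcript clusters these shares were 9.22% and 10.4%. LOX, the lysyl oxidase that cross-links collagen, had log2 signals of 10.72, 10.40 and 10.35 in MDA-MB-231-hC and 14.55, 14.93 and 14.93 in MDA-MB-231-hOSM, a 19.9-fold increase (adjusted p = 0.000149 from limma). NDRG1, a stress-responsive gene long used as a marker of hypoxia, rose 11.2-fold, from 9.51, 9.16 and 8.84 to 12.34, 12.72 and 12.90. BHLHE40, a transcriptional repressor, rose 9.58-fold. SLC2A14 rose 9.49-fold, but it is a near-identical copy of SLC2A3 and probes may not keep them apart. SLC2A3 is counted among the HIF-1-leaning targets below, so the same signal may stand in both lists. VEGFA, the main growth factor of blood vessels, had log2 signals of 13.06, 12.91 and 12.87 against 14.62, 14.80 and 14.78, or 3.45-fold more (adjusted p = 0.000924 from limma). Every array of MDA-MB-231-hOSM lay above every array of MDA-MB-231-hC for LOX, NDRG1 and VEGFA. With a set left out 8 to 10 of the 28 rose, and without set 1 BHLHE41, a repressor related to BHLHE40, was called lower (log2 fold change −1.005, adjusted p = 0.0820 from limma).

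Of 23 targets that lean toward HIF-1, mostly glycolytic enzymes, 2 rose and 21 were not called, with a median log2 fold change of 0.36. SLC2A3, the high-affinity glucose transporter GLUT3, rose 10.7-fold, from log2 signals of 11.25, 11.17 and 10.58 to 14.17, 14.27 and 14.82. PFKFB3, which makes the allosteric activator of phosphofructokinase, rose 3.20-fold. A further 9 passed the adjusted p under 2-fold, all with the higher signal in MDA-MB-231-hOSM, among them PGK1 at 1.60-fold (adjusted p = 0.0320 from limma) and LDHA at 1.37-fold (adjusted p = 0.0766 from limma), both enzymes of glycolysis. Passing the adjusted p with the higher signal in MDA-MB-231-hOSM thus held for 11 of 23, and for 9.22% of all transcript clusters.

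Targets that lean toward HIF-2, the protein of EPAS1, went both ways. Of 19 measured, 4 rose, 3 fell and 12 were not called, and their median log2 fold change was 0.29. Without the fold limit 7 of the 19 passed the adjusted p with the higher signal and 4 with the lower, against 9.22% and 10.4% of all transcript clusters. KDR, the main VEGF receptor, had log2 signals of 7.61, 7.63 and 7.49 against 10.90, 10.92 and 11.06, a 10.4-fold increase (adjusted p = 0.000105 from limma). IGFBP3, a carrier of insulin-like growth factors, rose 7.38-fold, and TGFA, a ligand of the EGF receptor, rose 2.56-fold, from 7.15, 7.19 and 7.21 to 8.58, 8.52 and 8.51. The members that fell were CXCR4, the receptor of CXCL12, by 1.51 on the log2 scale, SOX9, a transcription factor, by 1.43, and CCND1, which encodes cyclin D1, by 1.06. CCND1 is among the best known HIF-2 targets in kidney cancer, and here its arrays were 14.46, 14.33 and 14.39 against 13.29, 13.38 and 13.34 (adjusted p = 0.00440 from limma). SOX9 had an adjusted p = 0.105 from limma without set 2, and CCND1 came to exactly 2-fold, no longer over it, without set 1. EREG, an EGF receptor ligand and the remaining gene that rose (2.27-fold), was not called without set 2 or set 3 (adjusted p = 0.189 and 0.160 from limma). EPO, the hormone for which HIF-2 is known in the kidney, lay below the background guide on all 6 arrays.

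**Figure D4:**
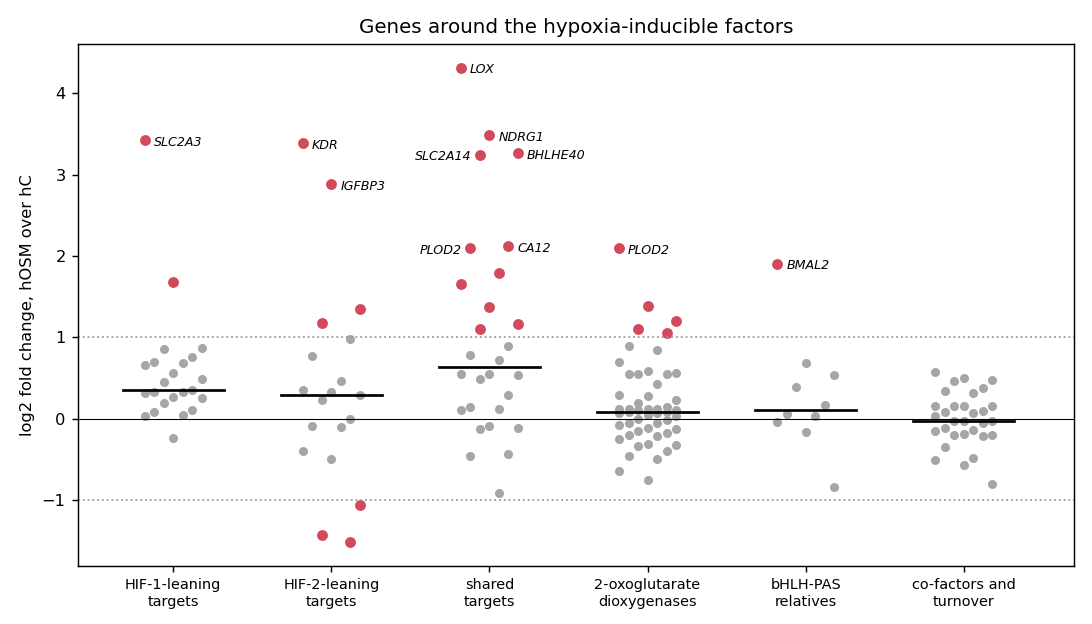
Log2 fold change (MDA-MB-231-hOSM over MDA-MB-231-hC) of each measured gene in 6 lists, with called genes in red, the rest in gray, the median as a black bar and 2-fold as dotted lines. Shared targets have the highest median, 0.64, with LOX at the top at 4.31, whereas no gene of co-factors and turnover is called.

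Of 51 other 2-oxoglutarate dioxygenases, the enzyme class to which the EGLN proteins and FIH belong, 5 rose, none fell and 46 were not called, and the median log2 fold change was 0.09. PLOD2, a lysyl hydroxylase of collagen that also stands among the shared targets, rose 4.27-fold, from log2 signals between 13.89 and 14.06 to signals between 15.99 and 16.17. KDM7A, a histone demethylase, rose 2.61-fold. Its MDA-MB-231-hC signals of 5.93, 5.79 and 5.75 lay around the background guide, which limits what can be said of the size of its change. P3H2, a collagen prolyl 3-hydroxylase, rose 2.30-fold, and P4HA1, a catalytic subunit of collagen prolyl 4-hydroxylase that is also among the shared targets, 2.14-fold. Of these 4, P3H2 was not called without set 1 or without set 3 (adjusted p = 0.186 and 0.259 from limma), nor P4HA1 without set 2 or set 3 (adjusted p = 0.118 and 0.111 from limma). Without set 3 only 2 of the 51 were called. The fifth gene called was KDM5B, also a histone demethylase, at 2.08-fold, which was not called without set 3 (adjusted p = 0.111 from limma).

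Among 10 relatives of the HIF proteins in the bHLH-PAS family, BMAL2 rose 3.75-fold and 9 were not called. BMAL2 encodes a clock protein that, like ARNT, acts as a general partner, and its log2 signals were 11.38, 11.28 and 11.55 against 13.35, 13.42 and 13.16 (adjusted p = 0.00103 from limma). AHR, the dioxin receptor, which competes for ARNT, was at 14.43, 14.49 and 14.12 against 13.41, 13.37 and 13.76, a log2 fold change of −0.83 that stayed under 2-fold (adjusted p = 0.0332 from limma). Without set 3 it was called, at −1.07 (adjusted p = 0.0785 from limma). Of 31 co-factors and proteins of HIF turnover none was called in either direction, with a median log2 fold change of −0.02. Without the fold limit 5 passed with the higher and 4 with the lower signal in MDA-MB-231-hOSM, so 9 of 31 against 19.7% of all transcript clusters. They included both directions within the VHL ligase itself, with CUL2, its scaffold, at a log2 fold change of 0.57 (adjusted p = 0.0445 from limma) and ELOB, an adaptor subunit, at −0.50 (adjusted p = 0.0568 from limma). Its subunits ELOC, at 0.16 (adjusted p = 0.413 from limma), and RBX1, at −0.02 (adjusted p = 0.923 from limma), did not pass, nor did VHL.

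EPAS1 is also known from the vessel wall, so markers of endothelial cells were read beside it. Of 11 measured, 2 rose and 9 were not called, and the sum of their linear signals was 2751 to 3325 in MDA-MB-231-hC and 4357 to 5215 in MDA-MB-231-hOSM. The 2 were KDR, also counted as a HIF-2 target, and ERG, a transcription factor, which rose 3.80-fold but was not called without set 2 or set 3 (adjusted p = 0.150 and 0.111 from limma). Of the 11, 6 lay at background by their means in both lines, namely PECAM1, CDH5, TIE1, TEK, CLDN5 and EMCN. ROBO4 had mean log2 signals of 5.89 in MDA-MB-231-hC and 6.79 in MDA-MB-231-hOSM (1.87-fold, adjusted p = 0.0101 from limma). VWF was lower, at 6.07 and 5.58 (adjusted p = 0.0913 from limma). Without the fold limit 4 of the 11 passed the adjusted p with the higher signal in MDA-MB-231-hOSM, against 9.22% of all transcript clusters. With the lower signal 2 passed, VWF and CLDN5 (adjusted p = 0.0658 from limma), against 10.4%. ESAM, at 11.26 and 10.90, made up most of the summed signal in MDA-MB-231-hC. In MDA-MB-231-hOSM most of the sum came from ESAM and KDR, the latter at 10.96 after 7.58 in MDA-MB-231-hC. Of 10 leukocyte markers 8 lay at background in both lines and none was called, with summed linear signals of 355 to 359 and 373 to 381. Of 7 fibroblast markers 5 lay at background in both lines and none was called, with sums of 633 to 675 and 610 to 652.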

How the data were processed

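RNA of 2 MDA-MB-231 lines was measured on Human Clariom S arrays, with 3 arrays per line. The deposited values are log2 signals from RMA in the Transcriptome Analysis Console 4.0, per the submitters' processing notes. RMA corrects background, normalizes between arrays and summarizes probes. Neither the library version nor the build was given in the sources used here, so only promoter coordinates, from RefSeq on GRCh38.p14, are printed. Symbols came from the platform annotation, updated through Entrez IDs (17709 transcript clusters with 1 symbol, 0 with several and 3739 with none). For 20 genes with several transcript clusters the one with the highest mean was kept.

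Differences were fitted by limma 3.58.1 (R 4.3.3; lmFit and eBayes) over all 21448 transcript clusters, with the set as a block and Benjamini-Hochberg adjustment. Calls needed an adjusted p under 0.1 and a change over 2-fold, and a change of exactly 2-fold was not called. The set number pairs the arrays because both lines carry it in the labels and were cultured in parallel. The values themselves hold arrays of a set as mirror images (median SD of set means 0.0076, of differences within a set 0.225), which leaves 2 residual degrees of freedom. The fit was tested on simulated data. The number of arrays limits the precision.

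Members and lists were chosen with earlier results of these data known. Named genes are the 9 members, OSM, up to 4 called genes with the largest change in each list, and the 5 genes nearest to EPAS1. VEGFA, PGK1, LDHA, TGFA, CCND1, EREG, EPO, KDM5B, AHR, BHLHE41, CUL2, ELOB, ELOC, RBX1 and the single markers were named after their values were seen. List genes without a matched transcript cluster were not analysed here. Fold changes are differences of mean log2 signals. The alternatives were no set in the model, quantile normalization, centring on array medians, the 7149 dimmest transcript clusters left out, eBayes with trend and robust settings, each set left out and an adjusted p under 0.05 without a fold limit.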

Additional observations from a re-analysis of the deposited data

How the results depend on the processing

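EPAS1 and EGLN3 were called under all 9 alternatives run (log2 fold change 4.47 to 4.99 and 1.16 to 1.18). No other member passed a rule with the 2-fold limit, and no member changed sign. Leaving out the dimmest transcript clusters removed HIF3A and gave no value for it. With an adjusted p under 0.05 and no fold limit HIF1A was added (log2 fold change 0.52, adjusted p = 0.0489 from limma), over all transcript clusters 1285 were higher and 1312 lower, 9 HIF-1-leaning targets were higher, 11 other dioxygenases were higher and 2 lower, 1 co-factor was higher and 2 lower, 1 bHLH-PAS relative was lower and 1 shared target was lower. Without the replicate block (set not in the model) 560 were higher and 333 lower, and no member's call changed. Leaving out a set, both arrays at once, gave 412 to 522 higher and 247 to 347 lower over all transcript clusters, 2 to 4 other dioxygenases higher, 0 to 1 bHLH-PAS relatives lower and 0 to 1 shared targets lower. With the block, leaving out 1 array of a set gives the same fit. No gene of the family had a second transcript cluster to try. Signals near background limit what can be said of HIF3A and of the size of the changes of EGLN3, NNMT, C3 and KDM7A. The causes of the differences between the lines were not tested.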
